A study of Mus musculus with 9 samples.

Results

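The matrix metalloproteinases and their tissue inhibitors were described in tumour lines of the mouse mammary gland labelled wild type or knockout for Jak1, which encodes a kinase relaying interferon and gp130 cytokine signals to STAT transcription factors. The set was 10 genes chosen by their symbols out of 24346 in the deposited table, namely 7 metalloproteinases (Mmp2, Mmp3, Mmp9, Mmp10, Mmp11, Mmp13 and Mmp14) and 3 inhibitors (Timp1, Timp2 and Timp3). Each line was grown out of a tumour of an FVB/N mouse carrying MMTV-neu, a transgene that puts the neu (Erbb2) oncogene under a mammary tumour virus promoter active in mammary epithelium. All 9 libraries share that transgene and strain, and all were grown adherent in serum with insulin, EGF and hydrocortisone. Lines 45555, 47298 and 45566B were each sequenced as Jak1 wild type and as Jak1 knockout, with Wt or Cre in their titles, and these lines were treated with puromycin. Lines 33373 and 33377 were present as wild type only and line 46295 as knockout only, which gave 5 wild-type and 4 knockout libraries from 6 lines. The labels give 1 library per line and state, name no separate cultures and do not say whether a line is a clone, so p-values measure only the spread between these libraries. Values are FPKM (fragments per length of transcript, scaled for the size of the library in a way that no source used here states).

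Metalloproteinases are zinc-dependent proteases that are made as inactive proenzymes and cleave collagens, proteoglycans, growth factors and one another once the propeptide is removed. TIMPs occupy the active site and block it, and TIMP2 together with membrane-bound MMP14 also forms the complex that activates pro-MMP2. In the mammary gland this system remodels the matrix during branching and involution, and in breast tumours much of the MMP2, MMP11, MMP13 and MMP14 is made by stromal fibroblasts or by tumour cells that have taken on mesenchymal features.

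Mmp13, Mmp3 and Mmp10 lie on the plus strand of chromosome 9 within a cluster of 10 metalloproteinase genes, in build mm10 at 7272514 to 7283331, 7445822 to 7455975 and 7502352 to 7510240. The other members are scattered. Mmp2 lies on chromosome 8 (92827291 to 92853420), Mmp9 on chromosome 2 (164940780 to 164955850) and Mmp14 on chromosome 14 (54431612 to 54445364), each on the plus strand. Mmp11 lies on the minus strand of chromosome 10 (75923222 to 75936496) and Timp3 on its plus strand (86300372 to 86349506). Timp1 lies on the plus strand of chromosome X (20870166 to 20874735) and Timp2 on the minus strand of chromosome 11 (118301069 to 118355740). All 10 are protein coding in GENCODE vM21. Timp1 and Timp3 sit inside the synapsin genes Syn1 and Syn3 on the opposite strand, Mmp11 overlaps Chchd10 on the opposite strand by 3367 bases, and Timp2 holds Cep295nl on its own strand. These overlaps are of whole gene spans, introns included, and do not show that reads are shared. No source used here says whether counting used strand, so reads from any shared exons could not be told apart by strand. Syn1 stayed between 0.0808 and 0.865 FPKM and Syn3 between 0.0489 and 0.948, whereas Chchd10 exceeded Mmp11 in 5 libraries. It stood at 51.1 FPKM in 46295, 25.9 in 33373, 10.2 in 33377 and 10.8 and 5.44 in 45566B wild type and knockout. The Mmp11 level may therefore be less certain in all of these.

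Promoter windows of 250 bases upstream of the RefSeq start (GRCm38.p6) were found for 8 of the 10 members, and Mmp2 and Mmp9 had no entry. The 3 cluster genes are shown because they shared a start-site layout that the other members lacked. Mmp14 and Timp1 are shown beside them because their levels spanned the widest range. Capitals mark matches to 3 motifs, each searched on both strands. The AP-1 motif, where Fos and Jun proteins bind, was spelled TGANTCA. The TATA box, which positions the polymerase at the start site, was spelled TATAAA. The GC box, a motif of many promoters without a TATA box, was spelled GGGCGG. Each sequence reads 5′ to 3′ along the gene.
Mmp3, chr9:7445572-7445821, plus strand: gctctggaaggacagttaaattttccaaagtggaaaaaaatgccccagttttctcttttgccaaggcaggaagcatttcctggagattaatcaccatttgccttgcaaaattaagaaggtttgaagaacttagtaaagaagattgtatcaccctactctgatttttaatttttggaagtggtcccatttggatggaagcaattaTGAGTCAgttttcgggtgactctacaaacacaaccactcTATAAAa
Mmp10, chr9:7502092-7502341, plus strand: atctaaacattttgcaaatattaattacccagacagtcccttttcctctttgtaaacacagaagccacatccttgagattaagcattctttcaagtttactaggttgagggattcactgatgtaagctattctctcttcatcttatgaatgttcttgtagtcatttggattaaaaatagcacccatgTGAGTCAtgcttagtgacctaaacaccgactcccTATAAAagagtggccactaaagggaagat
Mmp13, chr9:7272264-7272513, plus strand: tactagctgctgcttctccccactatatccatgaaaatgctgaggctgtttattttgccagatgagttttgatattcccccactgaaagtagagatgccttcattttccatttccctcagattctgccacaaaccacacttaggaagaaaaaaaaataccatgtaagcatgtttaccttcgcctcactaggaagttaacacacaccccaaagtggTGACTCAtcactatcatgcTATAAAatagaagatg
Mmp14, chr14:54431348-54431597, plus strand: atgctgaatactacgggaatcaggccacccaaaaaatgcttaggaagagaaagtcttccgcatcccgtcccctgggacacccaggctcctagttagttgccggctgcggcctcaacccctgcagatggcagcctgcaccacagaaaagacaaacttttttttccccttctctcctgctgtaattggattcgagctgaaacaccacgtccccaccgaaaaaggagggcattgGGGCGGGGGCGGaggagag
Timp1, chrX:20869916-20870165, plus strand: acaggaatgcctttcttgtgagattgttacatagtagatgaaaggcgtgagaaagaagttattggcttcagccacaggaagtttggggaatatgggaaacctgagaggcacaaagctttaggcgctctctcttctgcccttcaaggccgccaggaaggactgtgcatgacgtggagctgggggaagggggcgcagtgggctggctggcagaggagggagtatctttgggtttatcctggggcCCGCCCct

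An AP-1 match and a TATA box were both present in the windows of Mmp3, Mmp10 and Mmp13 and in none of the other 5. Their distances from the start differed. In that order the AP-1 matches began at -46, -63 and -35 bases and the TATA boxes at -7, -29 and -16. In the cluster as a whole 7 of 10 genes held both, against 1.21% of all 32851 promoter windows. AP-1 matches occurred in 6.75% of all windows and TATA boxes in 12.4%. The matches in capitals do not overlap. Each of Mmp11, Mmp14, Timp1, Timp2 and Timp3 held a GC box, which 32.7% of all windows hold. A STAT-type match (TTCNNNGAA) occurred in 0 of the 8 windows and in 7.02% of all. These are letter matches only.

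The deposited values carry no absolute depth. Low values move in steps of 1 fragment, which put the depth used for scaling at 0.416 (46295) to 1.0 of that of 45566B wild type. Because the scaling is not stated, these need not be the depths sequenced. Library sums were 567403 to 721751 FPKM. Jak1 itself was lower without exception in the knockout partner, at 86.7 and 74.4 FPKM in 45555, 63.1 and 27.5 in 47298, and 16.1 and 14.2 in 45566B. Its log2 fold change was -0.52 (limma adjusted p = 0.762), and a level over the whole gene is a weak check of a deletion. Epcam, the adhesion molecule that defines epithelial cells, was below 1 FPKM in the 4 libraries of 45555 and 47298, at 2.36 in 33377 and at 420 to 720.1 in the other 4. Of 15 fibroblast and mesenchymal markers, 12 or 13 reached 1 FPKM in the libraries of 45555 and 47298, 12 in 33377 and 11 in 33373, but only 2 to 4 in 45566B and 46295. Of 12 luminal epithelial markers, 2 reached 1 FPKM in 45555, 4 or 5 in 47298, 7 in 33377 and 11 in the other libraries, so the epithelial label is borne out least in 45555. In 47298 the keratin genes Krt8 (38.5 and 157 FPKM), Krt18 and Krt7 were present. Of 10 immune markers 0 to 4 reached 1 FPKM, and their sum ran from 0.726 FPKM in 45555 wild type to 1049 in 33373. The defining leukocyte genes Ptprc (at most 0.0293 FPKM) and Cd3e (listed at 0) were near absent, while S100a8 reached 899 FPKM in 33373 and Cd68 106 in 46295. Of 6 endothelial markers 0 to 2 reached 1 FPKM, with Kdr at up to 4.05 and Tek at up to 2.54 in 47298 and Pecam1 at no more than 0.105.

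Mmp2, the gelatinase that degrades type IV collagen and denatured collagen, was highest in 45555 and 47298 and was lower in every knockout library of a pair. Line 45555 held 221 FPKM as wild type and 96.1 as knockout, line 47298 held 364 and 41.3, and line 45566B held 2.09 and 0.726. Wild type thus exceeded knockout by 2.30-fold, 8.81-fold and 2.88-fold. The unpaired libraries held 1.07 FPKM (33373), 8.69 (33377) and 3.13 (46295), so all 4 libraries of 45555 and 47298 lay above the other 5 whatever their Jak1 state. Over the 3 pairs the fitted log2 fold change of FPKM + 1 came to -1.71 ± 0.51 (SE, n = 3 pairs, limma adjusted p = 0.762). In these bulk libraries, fewer cells that make a transcript and less transcript per cell cannot be told apart.

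Mmp14, the membrane-anchored protease that activates pro-MMP2 at the cell surface, was close to absent outside 45555, 47298 and 33373. The wild-type library of 45555 held 181 FPKM and its knockout partner 93.6, and the libraries of 47298 held 280 and 94.5. In 45566B it was at 0.0203 and 0.0154 FPKM, in 46295 it was listed at 0, and in 33377 it was at 0.292. Line 33373 held 81.7 FPKM of Mmp14 beside 420 FPKM of Epcam. The mesenchymal marker Vim was at 2315 FPKM in 33377, so a mesenchymal profile and Mmp14 did not always go together. Over the pairs the fitted log2 fold change came to -0.84 ± 0.34 (SE, n = 3 pairs, limma adjusted p = 0.762). Both knockout libraries with measurable Mmp14 were lower than their partners, by 1.93-fold and 2.96-fold, while the 45566B pair was near 0 in both states and carries no information on it.

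Mmp11 (stromelysin 3), a protease that furin-type convertases activate inside the cell and that is known from tumour stroma, was detected above 1 FPKM in all 9 libraries. Wild type against knockout, it measured 66.8 against 20.8 FPKM in 45555, 38.6 against 8.58 in 47298 and 2.11 against 2.72 in 45566B. It was 3.22-fold and 4.50-fold lower in the knockout libraries of the first 2 lines and slightly higher in the third, where the level is uncertain because of Chchd10. The unpaired libraries held 6.47 (33373), 3.87 (33377) and 13.2 FPKM (46295). The fitted log2 fold change came to -1.14 ± 0.51 (SE, n = 3 pairs, limma adjusted p = 0.762).

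Mmp3 (stromelysin 1), a broad-range protease that cleaves proteoglycans and activates other proenzymes, differed in opposite directions in 45555 and 47298. In 45555 the wild-type library held 2.101 FPKM and the knockout library 0.197. In 47298 they held 4.35 and 50.5 FPKM, the latter the highest level of any library. In 45566B the values were 0.472 and 1.29. The wild-type line 33377 held 41.2 FPKM and 33373 held 17.5, while 46295 held 0.842. In 47298 knockout Mmp3 exceeded Mmp2, which it did not do in either library of 45555. Over the pairs the fitted log2 fold change came to 0.84 ± 0.95 (SE, n = 3 pairs, limma adjusted p = 0.807), and without line 47298 it was -0.37.

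Mmp13 and Mmp10, the other genes of the set in the chromosome 9 cluster, were low in most libraries, as was Mmp9 on chromosome 2. Mmp13, a collagenase that cleaves fibrillar collagen, stood at 9.20 FPKM in 33373 and 9.93 in 46295 and at no more than 0.610 in the other 7 libraries. It was listed at 0 in both libraries of 45555. Both libraries that expressed it belong to lines with high Epcam, 1 wild type and 1 knockout. The 45566B libraries, with still higher Epcam (720.1 and 681 FPKM), held only 0.610 and 0.387 FPKM of Mmp13. Mmp10 (stromelysin 2) reached 1 FPKM only in 33377 (1.31) and 46295 (1.95) and was listed at 0 in the wild-type libraries of 45555 and 47298. Mmp9, the second gelatinase, which leukocytes make in quantity, was at or below 0.832 FPKM in 8 libraries and reached 1.27 in 47298 wild type. Mmp9, Mmp10 and Mmp13 had a mean under 1 FPKM over the paired libraries and did not enter the pairs fit. Tested without that filter they gave -0.09, 0.04 and 0.01 on the log2 scale, and the smallest adjusted p among them was 0.806 (limma).

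**Figure D1:**
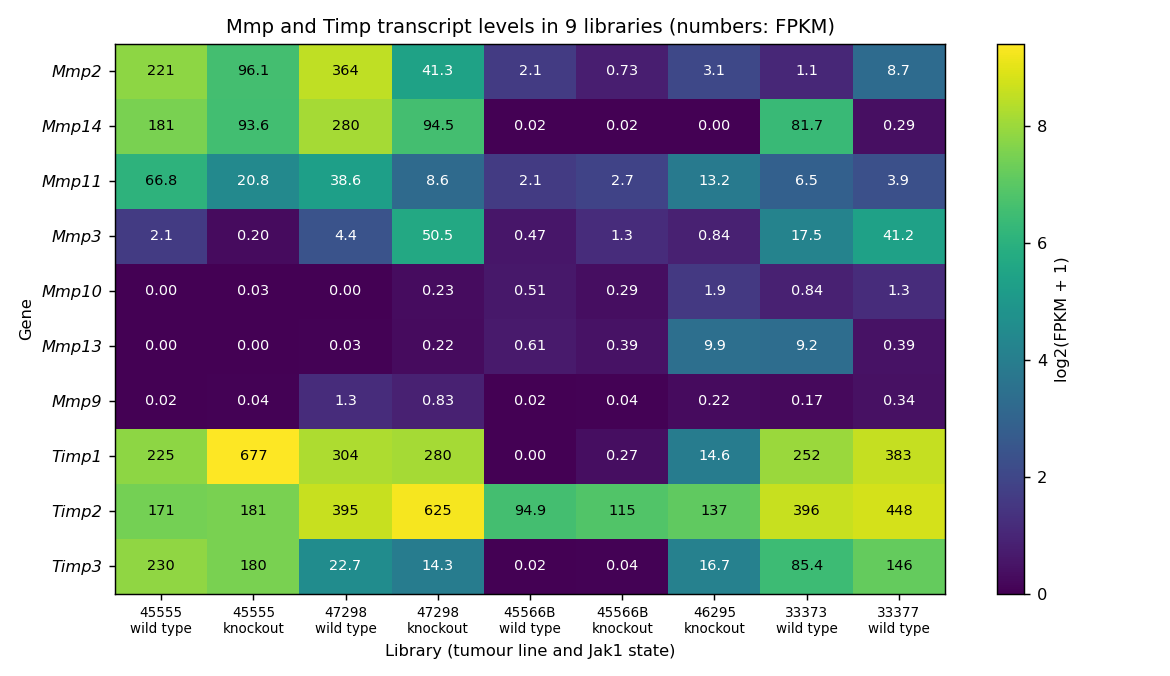
Levels of the 10 genes (rows) in the 9 libraries (columns), with FPKM printed in each cell and log2(FPKM + 1) as colour. Mmp2 and Mmp14 are highest in the 4 libraries of 45555 and 47298, Mmp13 reaches 9.20 and 9.93 FPKM in 33373 and 46295 only, and Timp2 is at 94.9 FPKM or more everywhere.

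Timp2 was the one inhibitor above 1 FPKM in every library, and its range was the smallest of the 8 members compared for range (2.71 log2 units, larger than that of 77.2% of genes). Mmp9 and Mmp10, low throughout, were not among them. The 45555 libraries held 171 (wild type) and 181 FPKM (knockout), against 395 and 625 in 47298 and 94.9 and 115 in 45566B. The unpaired lines held 396 (33373), 448 (33377) and 137 FPKM (46295). It was higher in the knockout library of all 3 pairs, the only tested member for which this held (14.3% of all tested genes were), by 1.06-fold, 1.58-fold and 1.21-fold. The fitted log2 fold change came to 0.34 ± 0.20 (SE, n = 3 pairs, limma adjusted p = 0.762), with a 95% interval from -0.21 to 0.88.

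Timp1, the secreted inhibitor that cytokines and growth factors induce, spanned the widest range. It was listed at 0 in 45566B wild type and stood at 0.268 FPKM in 45566B knockout and 14.6 in 46295. The other 6 libraries held 225 FPKM or more. Its level in 45555 knockout, 677 FPKM, was 3.01-fold that of the wild type (225), while in 47298 the values were 304 and 280. Those of 33373 and 33377 were 252 and 383. The highest minus the lowest log2(FPKM + 1) was 9.41, larger than that of 99.5% of 12198 genes, whose median was 1.498. Genes that every cell uses were above 8 FPKM in every library (lowest of 8 such genes, 8.75 FPKM), so the 0 of Timp1 was not shared by them. The log2 fold change over the pairs was 0.60 with an SE of 0.38 (n = 3 pairs, limma adjusted p = 0.762).

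Timp3, the inhibitor that binds to the matrix and also blocks ADAM proteases, separated the lines differently. Line 45555 held 230 FPKM as wild type and 180.5 as knockout. Line 47298, also below 1 FPKM of Epcam, held 22.7 and 14.3. It was near 0 in 45566B, at 0.0217 and 0.0411 FPKM. The unpaired lines held 85.4 (33373), 146 (33377) and 16.7 FPKM (46295). The value of 46295 lay between the 2 states of 47298. The fitted log2 fold change came to -0.32 ± 0.20 (SE, n = 3 pairs, limma adjusted p = 0.762).

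**Figure D2:**
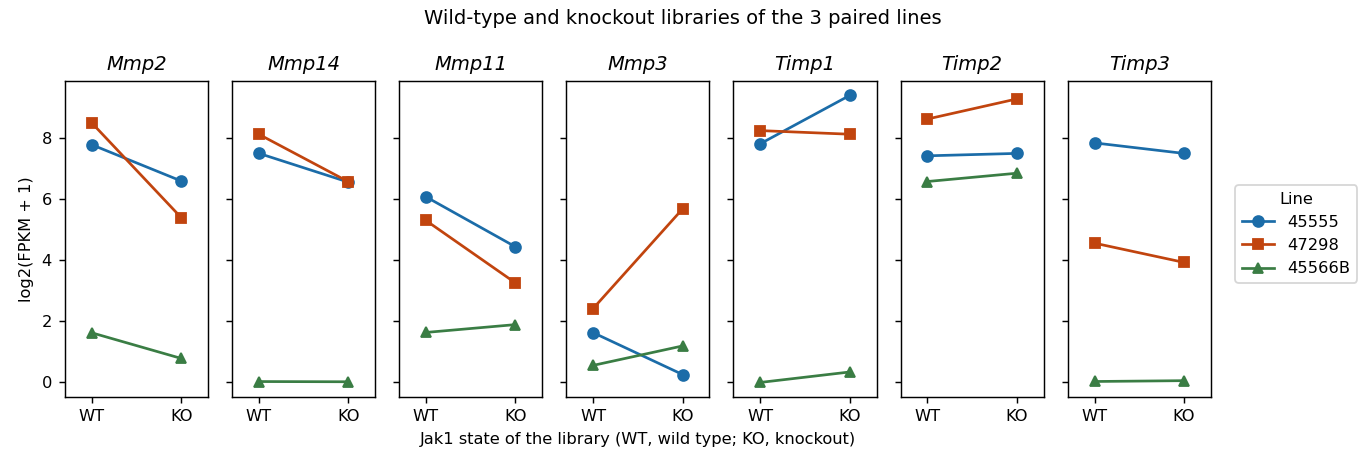
Each panel is a gene averaging 1 FPKM or more in the 6 paired libraries, with log2(FPKM + 1) on the vertical axis and a line joining the wild-type (WT) and knockout (KO) library of each tumour line. Mmp2 slopes down in all 3 lines, Mmp14 and Mmp11 in 45555 and 47298, and Mmp3 slopes down in 45555 and up in 47298.

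The pairs comparison asked what differs with the Jak1 label inside a line. Of the 10 members 7 averaged at least 1 FPKM and were tested, and 0 were called at an adjusted p under 0.05 (limma), as were 0 of all 12063 genes tested (0%). At an unadjusted p under 0.05 Mmp2 was lower, as were 1.86% of the genes tested, and no member was higher. The member median was -0.32 against -0.01 for all tested genes, with 4 members lower (51.4% of all genes were) and 3 higher (48.6%). Mmp2 was lower in all 3 lines. Mmp14 also counts as such, but only through a 45566B difference of -0.01 near 0 FPKM, and 13.3% of genes were lower in all 3. In simulated data of this design, run on 12063 genes, the test called 47.3% of genes shifted by 2 log2 units and 89.3% of those shifted by 4, among genes with a mean log2 value above 4. The simulated spread was drawn from that fitted over all genes. These rates therefore need not hold for members that vary more, such as Mmp3 (SE 0.95), Mmp2 (0.51) and Mmp11 (0.51).

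Within a line there is 1 library a state and no test, so differences of at least 1 log2 unit were counted. In 45555, Mmp2, Mmp3 and Mmp11 were lower by at least 1 log2 unit, as were 6.68% of the tested genes, and Timp1 was higher (3.20%). In 47298, Mmp2, Mmp11 and Mmp14 were lower (11.0%) and Mmp3 was higher (8.49%). In 45566B no tested member passed 1 log2 unit of FPKM + 1 downward (2.17%) or upward (0.854%). That count rests on the pseudocount, because most members were low in this line. With a pseudocount of 0.1 Mmp2 was at -1.41, Mmp3 at 1.28 and Timp1 at 1.88 there.

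Cell-type markers differed beside the metalloproteinases in 47298, and fewer of them did in 45555. The summed level of the 15 fibroblast and mesenchymal markers in 47298 was 8974 FPKM for wild type against 1682 for knockout. Of 13 tested markers 9 were lower by at least 1 log2 unit, as were 11.0% of all tested genes. Col1a1, a fibrillar collagen chain, stood at 1728 and 65.5 FPKM there. In the same line the 12 luminal markers summed to 117 and 491 FPKM, mostly Krt18 (52.7 and 250), Krt8 (38.5 and 157) and Krt7 (17.1 and 76.3). Of the 12, 4 were higher by at least 1 log2 unit (8.49% of all tested genes were), while Krt19 was lower (5.97 and 0.307 FPKM). Epcam stood at 0.324 and 0.581 FPKM. In wild type 5 luminal markers reached 1 FPKM, against 4 in knockout. In 45555 the mesenchymal sum was 9120 FPKM for wild type against 8069 for knockout, and Col1a1 was at 1879 and 1675. Of the 13 markers 3 were lower by at least 1 log2 unit, as were 6.68% of all tested genes. Vim, the mesenchymal intermediate filament, measured 2595 and 3218 FPKM in 45555. Other mesenchymal genes of 45555 differed as much as Mmp2, Mmp11 and Mmp14 did. Col3a1, another fibrillar collagen chain, measured 883 and 241 FPKM (3.67-fold), and Pdgfra, a PDGF receptor gene of fibroblasts, 143 and 41.3 (3.47-fold). Acta2, taken from the list of basal and myoepithelial markers, differed in opposite directions, at 178 and 1295.5 FPKM in 45555 and at 108 and 11.8 in 47298. The other tested marker of that list, Krt14, was below 1 FPKM in both lines. Of the 8 markers listed, 1 or 2 reached 1 FPKM in each of these libraries, so Acta2 alone is no sign of such cells. The part of all these markers in the metalloproteinase values was not tested.

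**Figure D3:**
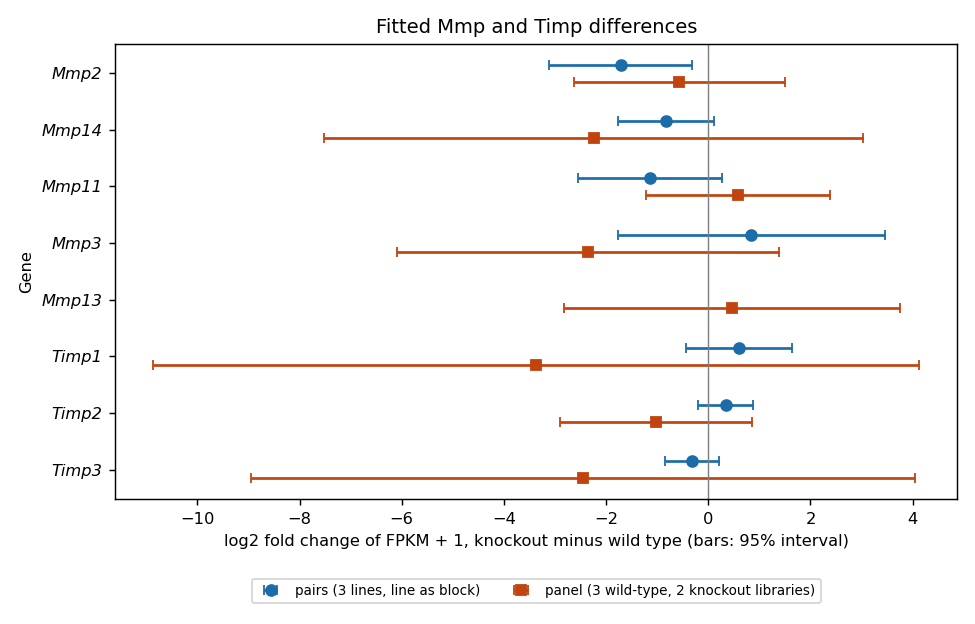
Fitted log2 fold changes (knockout minus wild type, on FPKM + 1) with 95% intervals from limma, for the pairs comparison of 3 lines and the panel comparison of 3 wild-type and 2 knockout libraries. Of the 15 intervals only that of Mmp2 in the pairs lies wholly below 0, from -3.11 to -0.32, before adjustment over all genes.

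Summed levels set the proteases against the inhibitors. The 7 metalloproteinases summed to 471 FPKM (wild type) and 211 (knockout) in 45555, to 688 and 196 in 47298, and to 5.84 and 5.47 in 45566B. The 3 inhibitors summed to 626 and 1038 FPKM in 45555, to 721.9 and 919 in 47298, and to 94.9 and 115 in 45566B. The inhibitor sum was therefore 1.33 times the protease sum in 45555 wild type and 4.93 times in knockout, 1.05 and 4.69 times in 47298, and 16.3 and 21.1 times in 45566B. The ratio was higher in the knockout library of all 3 pairs, and, being taken within a library, it is untouched by how libraries are scaled. It was not planned beforehand, has no test and adds up levels already given above. In 45566B the ratio rests on protease sums of only 5.84 and 5.47 FPKM and almost wholly on Timp2. The unpaired libraries stood at 6.27 (33373), 17.4 (33377) and 5.74 (46295). With all 23 metalloproteinase genes in the table in place of 7, the ratio moved by over 1.5 times in 4 libraries, to 3.19 and 4.84 in 45566B, to 1.39 in 46295 and to 4.08 in 33373. It stayed higher in the knockout library of each pair. These are sums of transcripts and say nothing of active enzyme.

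**Figure D4:**
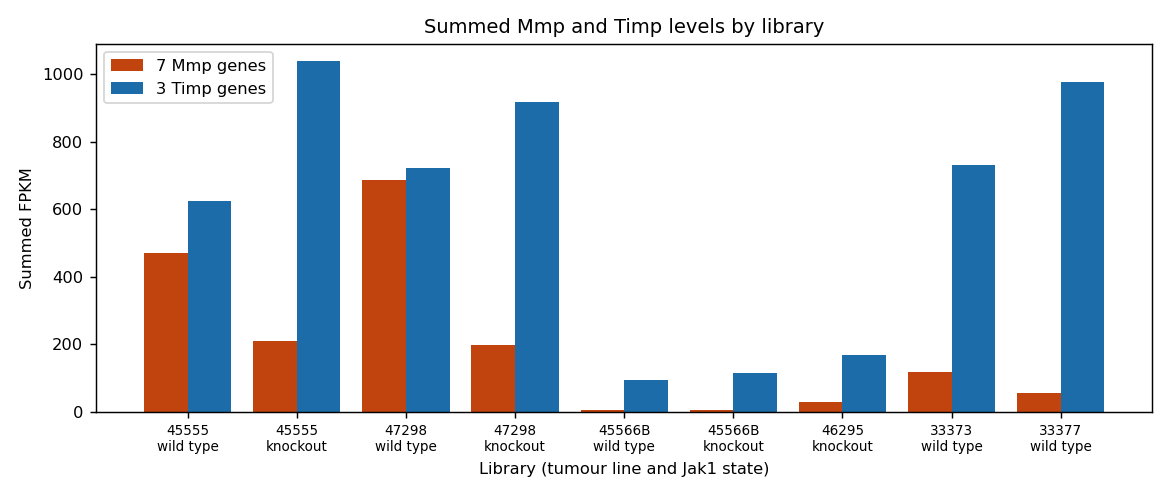
Summed FPKM of the 7 Mmp genes and the 3 Timp genes (bars) in each of the 9 libraries, with the vertical axis starting at 0. The protease sum is 471 (45555) and 688 FPKM (47298) with Jak1 wild type and 211 and 196 with Jak1 knockout, while the inhibitor sum is higher in each knockout library of a pair.

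The make-up of the protease sum differed between lines. Mmp2 was the leading metalloproteinase in both libraries of 45555 and in 47298 wild type, at 45.6 to 52.9% of the sum. In 47298 knockout Mmp14 led with 48.2%, and in 33373 it led with 69.9%. Mmp3 led in 33377 with 73.5%, and Mmp11 led in both libraries of 45566B and in 46295 with 36.2 to 49.8%. Among the inhibitors Timp2 led in 7 of 9 libraries and made up 99.7 to 99.98% of the sum in 45566B. Timp3 led in 45555 wild type with 36.7% and Timp1 in 45555 knockout with 65.2%.

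The panel comparison set the knockout libraries of 45566B and 46295 against the wild-type libraries of 45566B, 33373 and 33377. The sample descriptions place these 5 libraries together, and the comparison shares the 45566B libraries with the pairs. It had no block, so the libraries of 45566B, on opposite sides, were fitted as unrelated although they share a line. Of the members 8 passed its filter and 0 were called, as were 0 of 11838 genes (limma, 0%), and 0 members had an unadjusted p under 0.05, whereas 1.33% of genes were lower and 0.490% higher at that level. Only Mmp14 had both knockout libraries below all 3 wild-type libraries (6.43% of genes did), but with 45566B wild type at 0.0203 FPKM this separation lies near 0. No member had both above all 3 (7.67%). The largest differences were those of Timp1 (-3.37, SE 2.93), Timp3 (-2.45, SE 2.54), Mmp3 (-2.35, SE 1.47) and Mmp14 (-2.25, SE 2.07), each with an adjusted p of 0.999. In each of these genes 33373, 33377 or both stood far above both 45566B libraries. All 12 tested mesenchymal markers were lower in the same comparison (median -2.37), as were 47.7% of all genes. All 11 tested luminal markers were higher (median 1.90), as were 52.3%. None was called, and the part of these markers in the result was not tested. Leaving out 33373 and 33377 left 45566B as the only wild-type library. Timp1 was then at 2.15, Timp3 at 2.07 and Timp2 at 0.40 on the log2 scale, with the sign turned. In 45566B wild type Timp1 was listed at 0 and Timp3 stood at 0.0217 FPKM, against 14.6 and 16.7 in 46295 knockout. With both lines kept, 6 members were lower (47.7% of all genes were) and 2 higher (52.3%). The libraries of 33373 and 33377 also differ from the other 7 in the form of their column names. Mmp2 (-0.57, SE 0.81), Mmp11 (0.59, SE 0.70), Mmp13 (0.46, SE 1.29) and Timp2 (-1.03, SE 0.74) had the smaller differences.

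Beyond the 10 members, 4 further metalloproteinases reached 10 FPKM in a library. Mmp19, which cleaves basement membrane proteins, resembled Mmp2 in 2 lines, with 51.7 FPKM (wild type) and 21.8 (knockout) in 45555 and 135 and 12.3 in 47298, against 0.388 and 0.680 in 45566B. Mmp23 was at 23.7 and 10.6 FPKM in 45555 and at 33.3 and 0.730 in 47298, and did not exceed 0.237 elsewhere. Mmp7 (matrilysin), an epithelial metalloproteinase of the chromosome 9 cluster, stood at 39.6 FPKM in 33373, 43.8 in 46295 and 5.22 in 33377 and at most 1.70 elsewhere, which placed its highest levels in the same 2 libraries as Mmp13. Mmp15, a membrane-type protease, was at 41.0 FPKM in 46295, at 10.6 and 8.42 in 45566B and at 10.1 in 33373, and at most 1.33 in the others. Mmp16, Mmp17 and Mmp28 reached 1 FPKM in some libraries, with highest values of 2.90 (33377), 5.66 (45555 knockout) and 8.07 (45566B wild type). The highest levels of Mmp8, Mmp12, Mmp20, Mmp21, Mmp24, Mmp25, Mmp27, Mmp1a, Mmp1b and Timp4 stayed under 1 FPKM. Of these 17 other genes 5 were tested in the pairs and none was called, with 4 lower (51.4% of all genes were) and 1 higher (48.6%). Mmp23 was at -1.80 (SE 0.92), Mmp19 at -1.43 (SE 0.75) and Mmp17 at -0.31 (SE 0.38).

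Related proteases and regulators were read from lists of the pathway. Among ADAM and ADAMTS proteases 14 of 18 tested were lower in knockout over the pairs, 2 of them at an unadjusted p under 0.05 and 0 adjusted, with a median of -0.69 against -0.01 for all genes. Of all genes 51.4% were lower, 1.86% at that p. The list median was -0.78 in 45555 and -1.75 in 47298 but -0.01 in 45566B. Adamts1, a proteoglycanase, stood at 100.5 and 31.8 FPKM in 45555, 78.4 and 4.18 in 47298 and 22.5 and 11.7 in 45566B (-2.15, SE 0.65). On the log2 scale Adamts4 was at -1.26 (SE 0.41) and Adamts9 at -1.002 (SE 0.38). Adamts4 cleaves the proteoglycan aggrecan. In the list of matrix substrates 11 of 13 were lower (median -0.83), led by Lamc1 (-0.83, SE 0.36), Col5a1 (-0.90, SE 0.39) and Col3a1 (-2.23, SE 0.99), with 0 at an unadjusted p under 0.05. One line carried that median, which was -1.85 in 47298 against -0.18 in 45555 and 0.02 in 45566B.

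Activators and the plasminogen system showed no shared direction, with 8 of 14 tested higher and 6 lower (median 0.06). Of all genes tested over the pairs 48.6% were higher and 51.4% lower. Plaur, the urokinase receptor, was at 0.94 (SE 0.43) on the log2 scale and Ctsk, the collagen-degrading cathepsin K, at -1.05 (SE 0.45). Of 13 regulators at the cell surface and in the matrix 4 were higher and 9 lower, with Itgav at 0.81 (SE 0.26), Cldn1 at -0.77 (SE 0.34) and Thbs2 at -1.57 (SE 0.74). Itgav, the integrin alpha v chain, was the only one of them at an unadjusted p under 0.05, as were 1.51% of all genes in that direction. The smallest adjusted p of any gene tested was 0.762 (limma), so none of these lists held a call.

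Genes known to induce metalloproteinases, AP-1 subunits among them, were read as a list. Fos, an AP-1 subunit, stood at 36.2 and 1.66 FPKM in 45555, 16.8 and 1.88 in 47298 and 12.5 and 9.83 in 45566B (-2.25, SE 0.73, limma adjusted p = 0.762). Fosl2, another AP-1 subunit, was at -0.79 (SE 0.31) and Egfr, the EGF receptor gene, at -0.66 (SE 0.27). Mmp3, whose window above holds an AP-1 match, was lower in 45555 knockout and higher in 47298 knockout, and a link to AP-1 subunit levels was not tested. Fosl1 was at 5.82 and 18.7 FPKM in 45555 and at 4.53 and 1.68 in 47298. Stat3, which gp130 cytokines activate through JAK1, was at 66.5 and 19.0 FPKM in 45555, at 92.3 and 46.0 in 47298 and at 46.4 and 45.7 in 45566B. Of the 20 inducers tested 9 were higher (48.6% of all genes were) and 11 lower (51.4%), with a median of -0.06.

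Likeness of pattern was measured as Pearson's r of log2(FPKM + 1) over the 9 libraries among 11286 genes, as a description only, since the libraries come from 6 lines and pairs of a line share their origin. Among the genes most like Mmp2 were Fam131b (r = 0.987) and Sptbn1 (0.986). Mmp14 was most like Bdh2 (0.987), Cyba (0.981) and Ccdc80 (0.980). Mmp3 was most like Gdpd3 (0.979), Bmp4 (0.962) and Angpt4 (0.962), of which Bmp4, a growth factor, measured 8.05 and 63.5 FPKM in the 2 states of 47298. Mmp13 was most like Gabrp (0.990), Muc20 (0.989) and Prom1 (0.984), which were high in 33373 and 46295. For Mmp11 the genes were Dym (0.976), Ntan1 (0.973) and Ttc39c (0.972). For the inhibitors they were Samd4 (0.982), Vasn (0.979) and Akap2 (0.979) for Timp1, Masp1 (0.975), Tulp4 (0.974) and Ids (0.959) for Timp2, and Sec24a (0.968), Nckap5l (0.958) and Msmp (0.940) for Timp3. No member was among the 3 genes most like another member.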

How the data were processed

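RNA-seq was measured in 9 libraries. The authors deposited FPKM for each symbol. The submitters' processing notes name build mm10 and, among the tools, Cuffnorm, Cufflinks 2.2, TopHat2 2.1 and cutadapt. No source used here states the scaling option or the annotation. A second deposited table repeats 4 of the libraries with identical FPKM and was used only to check that. Of 24346 rows, 4 with a repeated date-like name were left out. FPKM hold no counts, so genes were tested on log2(FPKM + 1) with limma 3.58.1 in R 4.3.3 (variance trend, two-sided, Benjamini-Hochberg over all genes, threshold 0.05), after leaving out genes averaging under 1 FPKM in the compared libraries. Fold changes on this scale understate those of low genes. The pairs comparison had the line as a block (6 libraries), and the panel comparison had none (5 libraries). The pairing comes from the shared line, and the deviations of the 2 libraries of a line correlated at 0.700 (45555), 0.399 (47298) and 0.804 (45566B). Differences within a line have 1 library a state and no test. The tests were tested on simulated data. Groups came from the labelled genotype. Alternatives were the pseudocount, the filter, the scaling, short noncoding RNA genes, the block and leaving out libraries. Members and lists were chosen with earlier results of these data known. Named genes were all members, the 3 genes most like each member, the 3 genes of each pathway list with the smallest p over the pairs, and other Mmp genes of at least 1 FPKM. A few genes that this rule names are not reported here. Markers, Stat3, Fosl1, Jak1 and overlapping genes were named for context. Promoters came from RefSeq GRCm38.p6.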

Additional observations from a re-analysis of the deposited data

Results flagged for a closer look

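Of 20 sets of libraries (10 genes in 5 wild-type and 4 knockout libraries) 3 held a library far from the others on the log2(FPKM + 1) scale. The cut-off is set to flag about 1 in 20 sets of normally distributed values. Many values here lie near 0 and the sets share the same libraries, so that rate is no yardstick for the count of 3. Timp1 was listed at 0 in 45566B wild type, while the other 4 wild-type libraries held 225 FPKM or more. Mmp13 stood apart at 9.20 FPKM in 33373 among the wild-type libraries and at 9.93 FPKM in 46295 among the knockout libraries. Mmp3 differed in direction between lines, with a log2 difference of -1.37 in 45555 and 3.27 in 47298, from 1 library a state, and that difference between lines was not tested.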

How the results depend on the processing

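No member was called under any alternative run, where the adjusted p of members ranged from 0.591 to 0.9999 over the pairs and from 0.194 to 1.000 in the panel. The number of genes called stayed at 0 except for 6 without line 47298 (range 0 to 6 over the pairs when each line was left out) and 4 in the panel with a pseudocount of 0.1. Without the replicate block the pairs fit called 0 genes, with 58 in place of 406 at an unadjusted p under 0.05. The block changed no call. Leaving out short noncoding RNA genes moved the median of all genes over the pairs from -0.01 to 0.16. The genes at an unadjusted p under 0.05 then split into 555 higher and 156 lower, against 182 and 224, and 75th percentile scaling gave 233 and 194. With that shift included, Mmp2 was at -1.54, Mmp11 at -0.96 and Mmp14 at -0.67. Of the member fold changes under alternatives, 137 kept and 9 turned their sign. When each line was left out of the pairs, Mmp3 ranged from -0.37 (without 47298) to 1.95. The other members kept their sign but moved by over 1.5 times, Mmp2 from -2.15 to -1.02, Mmp11 from -1.84 to -0.69, Mmp14 from -1.25 to -0.48, Timp1 from 0.11 (without 45555) to 0.96, Timp2 from 0.18 to 0.47 and Timp3 from -0.49 to -0.16. Apart from Timp1, each was closest to 0 without 47298. In the panel, leaving out each library gave -1.20 to 0.08 for Mmp2 (0.06 without 45566B knockout, 0.0783 without 33377), -0.38 to 1.55 for Mmp11 and -1.03 to 1.95 for Mmp13. Without lines 33373 and 33377, which left 45566B as the only wild-type library, Timp1 was at 2.15, Timp2 at 0.40 and Timp3 at 2.07. The cause was not tested. In the panel (11838 genes), simulated shifts of 2 log2 units were recovered in 0% of changed genes and shifts of 4 in 81.8%. That spread too was drawn from all genes, so these rates need not hold for members that vary more, such as Timp1 (SE 2.93). Values under 1 FPKM rest on few fragments, and differences within 45566B depend on the pseudocount (Timp1 1.88 with 0.1, 0.34 with 1).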
